A study of Mus musculus with 5 samples.

Results

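Genes of the cytochrome P450 enzymes and of 2 families of conjugating enzymes, the UDP glucuronosyltransferases (Ugt) and the cytosolic sulfotransferases (Sult), were described in medullary thymic epithelial cells. The members were chosen by symbol alone, as protein-coding RefSeq genes starting with Cyp, Ugt or Sult and a digit, with no measured value in the rule. They number 142 of 21887 coding genes placed on the autosomes, X or Y, and comprise 99 P450, 22 Ugt and 21 Sult genes. The contrast drawn below, of members in sterol synthesis and broad use with members of liver-type clusters, was set with earlier results of these lists known and is therefore given without a test. H3K36me3, trimethylation of lysine 36 of histone H3, was immunoprecipitated with 1 antibody from mTEClo of wild-type B6 thymus, the fraction sorted as EpCAM+ UEA-1+ with low Ly51 and low CD80. Of the 5 samples, 2 are ChIP libraries, named here series 1 and series 2, and the other 3 are inputs without antibody, 2 for series 1 and 1 for series 2. Cells came from individual mice, but no mouse is tied to a library and no age is given, so differences between the libraries may be technical.

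P450 enzymes are haem proteins that insert oxygen into lipids and foreign compounds, and Ugt and Sult enzymes attach glucuronic acid and sulfate to such products so that they can be excreted. A few P450 genes serve synthesis of cholesterol, steroids, bile acids and vitamin D in many tissues or in particular glands. The larger subfamilies sit in tandem clusters and are best known from liver, kidney, intestine and airway. H3K36me3 is laid down behind elongating RNA polymerase II, and is read as a mark of transcribed gene bodies. Medullary thymic epithelium is known for transcribing genes of peripheral tissues at low level in a small part of its cells.

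Few members carried a peak in either library. In series 1, 10 of 142 members held at least 1 bp of a peak (7.04%, exact 95% interval 3.43 to 12.6%), where 16.3% of all protein-coding genes did. In series 2 the count was 11 (7.75%, 3.93 to 13.4%), against 19.5% of all genes. A peak in either series was found in 20 members (14.1%, 8.82 to 20.9%), against 27.4%, and a peak in both in 1 member (0.704%, 0.0178 to 3.86%), against 8.42%. Intervals are Clopper-Pearson intervals of counting error only, since neighbouring genes are not independent draws. The members are not short: their median span was 24.0 kb against 17.2 kb for all coding genes, and long genes are hit more often. Weighted to the members' spread over 10 length classes, all coding genes gave 17.4% in series 1, 20.1% in series 2, 29.7% in either and 7.85% in both. The members' shares were thus below those of genes of like length in each count. Peaks covered 0.178% of the summed spans of the members in series 1 and 0.0584% in series 2, against 0.315% and 0.224% over all coding genes.

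**Figure D1:**
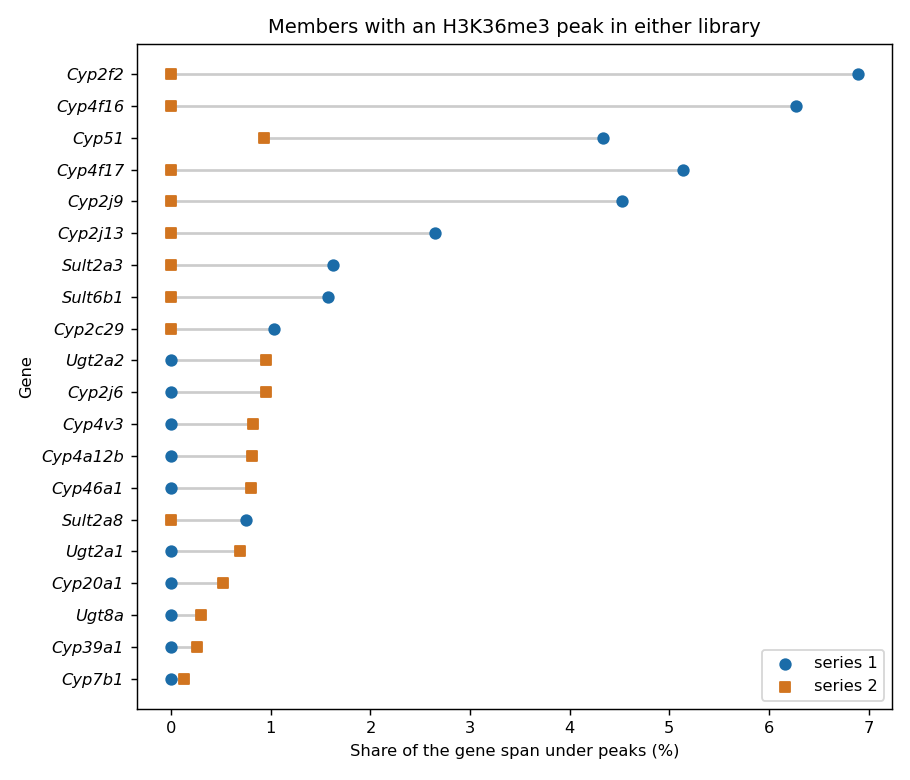
Share of the gene span under peaks (x axis, percent) for the 20 members with a peak in either library; circles are series 1, squares series 2, and a grey line joins the values of a gene. Only Cyp51 is above 0 in both libraries, and the shares of series 1 reach 6.89% while those of series 2 stay below 1%.

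Cyp51 was the 1 member with a peak in both libraries. It encodes lanosterol 14-alpha demethylase, the P450 of cholesterol synthesis, and spans 24.0 kb on chromosome 5 from 4080674 to 4104697 (mm10, minus strand). Series 1 had 1 peak of 1041 bp from 4086131 to 4087171, over 4.33% of the gene, with a score of 17. Series 2 had 1 peak of 223 bp from 4086083 to 4086305, over 0.928% of the gene, with a score of 56. The mean covered share was 2.63% ± 2.41 (SD, n = 2), a spread nearly as large as the mean. Covered share depends on peak width, which is not on 1 scale across the lists. This SD therefore also holds the difference between the lists. Both peaks lay at the same place: they shared 175 bp, and their centres stood 75.1% and 77.0% of the way from the 5′ to the 3′ end, which left 5.98 and 5.52 kb to the latter. Among all coding genes, 324 (1.48%) held peaks of both series that share bases within the gene, which is 17.6% of the 1843 genes hit in both. The ranks in the lists differed: 79.4% of series 1 peaks scored at least 17, and 1.57% of series 2 peaks scored at least 56. The score is the authors' own and its meaning is not stated, so it ranks peaks within a list only. No other annotated gene overlapped these peaks. Akap9, the next coding gene, lies 470 bp away and held its own peaks, 4 in series 1 and 3 in series 2.

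The promoter of Cyp51 is rich in CpG, as are those of a few other members. RefSeq promoters on GRCm38.p6, 250 bases before to 50 bases after the most upstream start in the table, were matched for 114 of the 142 members and 17492 coding genes. The promoters of 4 members are shown, 5′ to 3′ on the gene's strand in lower case with every CpG in capitals: Cyp51, hit in both libraries, Ugt8a, which has the most CpG of all members and was hit in series 2, and Cyp2f2 and Cyp2c29, which have few or none and were hit in series 1. They are chr5:4104648-4104947 (minus strand) for Cyp51, chr3:125938603-125938902 (minus strand) for Ugt8a, chr7:27119705-27120004 (plus strand) for Cyp2f2 and chr19:39286835-39287134 (plus strand) for Cyp2c29.
Cyp51: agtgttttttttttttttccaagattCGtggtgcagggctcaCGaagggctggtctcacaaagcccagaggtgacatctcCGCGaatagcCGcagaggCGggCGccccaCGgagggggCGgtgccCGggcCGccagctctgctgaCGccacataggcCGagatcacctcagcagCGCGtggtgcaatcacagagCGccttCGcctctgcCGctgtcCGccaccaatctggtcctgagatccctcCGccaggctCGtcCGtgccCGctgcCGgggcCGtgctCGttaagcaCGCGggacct
Ugt8a: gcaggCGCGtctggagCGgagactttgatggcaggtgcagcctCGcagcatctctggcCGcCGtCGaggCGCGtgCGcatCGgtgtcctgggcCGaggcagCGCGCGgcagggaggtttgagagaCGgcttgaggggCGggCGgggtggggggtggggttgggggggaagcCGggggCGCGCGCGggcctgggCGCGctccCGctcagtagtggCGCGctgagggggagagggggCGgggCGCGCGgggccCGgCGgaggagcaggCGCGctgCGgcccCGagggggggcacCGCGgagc
Cyp2f2: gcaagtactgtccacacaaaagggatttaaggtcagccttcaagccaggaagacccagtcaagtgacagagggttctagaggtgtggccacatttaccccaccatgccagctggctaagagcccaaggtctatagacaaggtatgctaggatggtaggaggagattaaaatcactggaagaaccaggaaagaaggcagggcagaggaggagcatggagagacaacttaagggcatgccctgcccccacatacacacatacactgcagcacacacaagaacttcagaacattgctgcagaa
Cyp2c29: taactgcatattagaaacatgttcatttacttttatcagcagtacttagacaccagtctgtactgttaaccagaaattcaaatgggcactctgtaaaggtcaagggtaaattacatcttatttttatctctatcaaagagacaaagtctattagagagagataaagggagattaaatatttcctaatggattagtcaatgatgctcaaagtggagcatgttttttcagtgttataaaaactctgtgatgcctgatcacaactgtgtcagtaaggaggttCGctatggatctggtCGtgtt
The Cyp51 window holds 28 CpG, an observed over expected ratio of 0.894 at 64.7% GC, and that of Ugt8a 40 CpG, with a ratio of 0.974 at 78.3% GC. Cyp2f2 has none at 50.3% GC, and Cyp2c29 has 2, a ratio of 0.217 at 35.3% GC. The window of Cyp2c29 also holds the letters TATAAA, at position -19 from the start that the window uses. The gene span begins upstream of that start, at 39287044, so these letters lie within the span. The peaks lay elsewhere: among hit members with a listed strand, the peak centre nearest to a 5′ end, in Cyp4f16, was 2.69 kb into the gene.

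The other broadly used members split between a single series 2 peak and none. The list of 11 holds, beside Cyp51, Cyp20a1, Cyp2r1, Cyp2u1, Cyp2s1, Cyp4v3, Cyp27a1, Cyp7b1, Cyp1b1, Sult1a1 and Sult2b1, and 4 of them (36.4%, exact 95% interval 10.9 to 69.2%) were hit in series 2 and 1 was hit in series 1. All coding genes weighted to their length classes gave 21.3% and 18.5%, both inside the wide intervals of 11 genes. Cyp20a1, a P450 of unknown substrate on chromosome 1 from 60343300 to 60388060, had 0 peaks in series 1 and 1 of 231 bp in series 2, near the middle of the gene. That peak had a score of 30, which 12.2% of series 2 peaks reach. Cyp4v3, a fatty acid hydroxylase on chromosome 8 from 45305801 to 45333163, had 0 in series 1 and 1 of 226 bp in series 2, with a score of 16, where the lncRNA gene Gm30504 lies as well. Cyp7b1, an oxysterol hydroxylase on chromosome 3 from 18071944 to 18243890, is the longest of the 11 at 171.9 kb and had 0 peaks in series 1 and 1 of 218 bp in series 2, with a score of 14. These 3 genes therefore rested on 1 narrow peak in 1 library each. No peak was found in either series on Cyp27a1, the mitochondrial sterol 27-hydroxylase (24.8 kb), Cyp2r1, a vitamin D 25-hydroxylase (12.9 kb), Cyp1b1, an aryl hydrocarbon inducible P450 (8.12 kb), Cyp2s1 (14.1 kb) or Cyp2u1 (13.7 kb). Sult1a1, the phenol sulfotransferase (17.6 kb), and Sult2b1, which sulfates cholesterol in stratified epithelium (29.7 kb), had none either.

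Genes for steroid, bile acid and vitamin D metabolism had about as many hits in either series as genes of like length. None of 15 was hit in series 1 and 3 were hit in series 2, where all genes weighted to their length classes give 2.17 and 2.58 genes (14.4% and 17.2%), and 3.65 (24.3%) in either series. The 3 were Cyp7b1, Cyp46a1 and Cyp39a1, which act on cholesterol or its hydroxylated products. Cyp46a1, the cholesterol 24-hydroxylase known from neurons, lies on chromosome 12 from 108334268 to 108362234. It had 0 peaks in series 1 and 1 of 223 bp in series 2, with a score of 21, 3.18 kb before its 3′ end. Cyp39a1, which acts on 24-hydroxycholesterol, lies on chromosome 17 from 43667372 to 43751431 and had 0 in series 1 and 1 of 220 bp in series 2, with a score of 24. The longest of the 15 without a peak were Cyp19a1, the aromatase that makes oestrogens (102.2 kb), and Cyp11a1, which starts steroid synthesis from cholesterol (29.0 kb). The median span of the list was 12.9 kb. Retinoic acid hydroxylases had no peak in either library: Cyp26b1 spans 22.5 kb, Cyp26c1 8.21 kb and Cyp26a1 3.80 kb, and 7.27% and 8.26% of genes of their length classes were hit in series 1 and 2, so 3 genes without a peak say little.

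**Figure D2:**
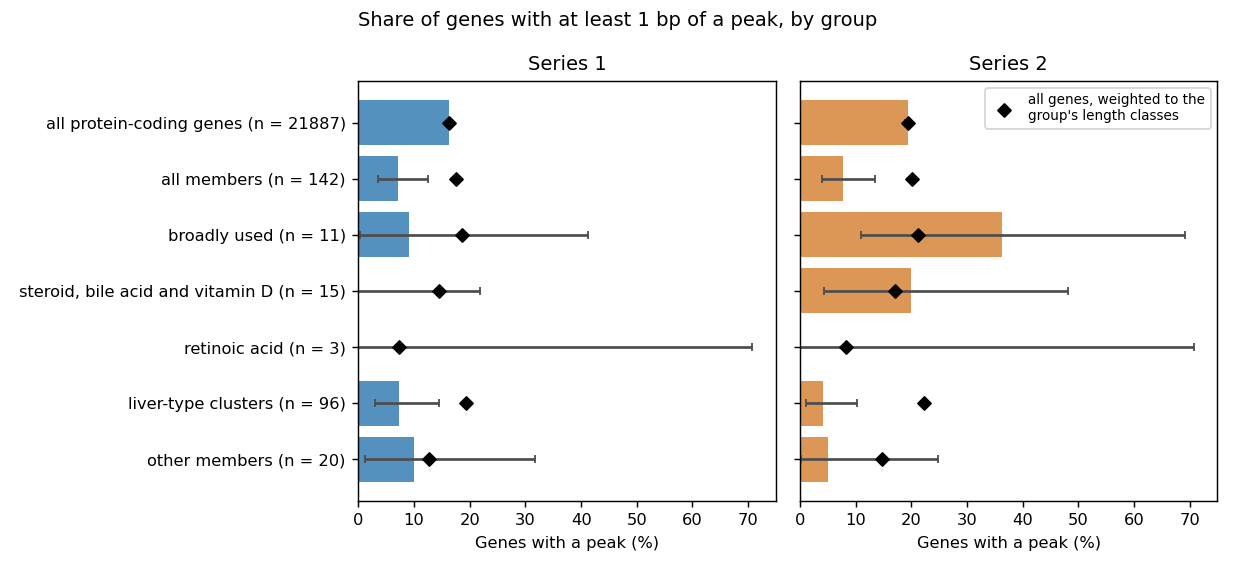
Share of genes hit (x axis, percent) in series 1 (left) and series 2 (right) by group; bars are the observed shares, error bars exact 95% binomial intervals, and diamonds the share of all coding genes weighted to the group's length classes. In series 2 the broadly used bar stands at 36.4% and the liver-type bar at 4.17%, on either side of their diamonds at 21.3% and 22.2%; 3 genes are in both the broadly used and the steroid group.

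Liver-type cluster genes, 96 of the 142 members, had 7 hit in series 1 (7.29%, exact 95% interval 2.98 to 14.4%) and 4 in series 2 (4.17%, 1.15 to 10.3%). Genes of their length classes gave 19.4% and 22.2%. Of the 4 series 2 hits, Ugt2a1 and Ugt2a2 overlap and share 1 peak. The group was set by subfamily symbol, not by measured expression in liver, so it also holds genes known from other tissues. None of the 96 was hit in both series (exact upper limit 3.77%), where 8.95% of genes of their length classes were, or 8.59 genes. The 9 Ugt1a genes, which form 1 locus, supply 2.09 of those 8.59. Classes that also take in promoter CpG lowered the background of the 80 liver-type members with a matched promoter. It fell from 20.2% to 11.4% in series 1, or 9.08 genes, where 6 were observed. In series 2 it fell from 23.1% to 14.7%, or 11.8 genes, where 3 were observed. For both series it fell from 9.55% to 4.54%, or 3.63 genes, where 0 were observed. For 9 matched broadly used members it moved little, from 16.6% to 15.9% in series 1 and from 18.3% to 17.8% in series 2. The share was higher for the broadly used than for the liver-type members in both libraries, by little in series 1 (9.09% against 7.29%) and by more in series 2 (36.4% against 4.17%). Cluster members resemble one another, so reads may map to several of them, and how such reads were treated is not given in the sources used here.

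Among the P450 clusters, Cyp2j and Cyp4f, which act on arachidonic and other fatty acids, held 5 of the 7 hits. Their counts in either series, 3 of 7 and 2 of 9, stood beside 2.90 and 2.36 from genes of their length classes. Of 7 Cyp2j genes on chromosome 4, Cyp2j13 had 1 peak of 925 bp in series 1, with a score of 31 and 2.65% of the span, and 0 in series 2. Cyp2j9 had 1 of 1090 bp in series 1, with a score of 12 and 4.52% of the span, and 0 in series 2. Cyp2j6 went the other way, with 0 in series 1 and 2 in series 2, of 229 and 230 bp with scores of 16 and 12, near its 3′ and 5′ ends. Of 9 Cyp4f genes, Cyp4f16 had 1 peak of 956 bp in series 1 over 6.27% of its span, with a score of 28, and 0 in series 2. Its neighbour Cyp4f17 had 2 in series 1 over 5.14%, with scores of 19 and 15, and 0 in series 2. Both lie on chromosome 17, from 32536545 to 32551798 and from 32506192 to 32530158. Single hits were Cyp2c29, of the 15 drug and fatty acid metabolising Cyp2c genes, with 451 bp (1.03% of the span) in series 1 and a score of 13, and Cyp4a12b, of the 8 fatty acid omega-hydroxylases of Cyp4a, with 223 bp (0.814%) in series 2 and a score of 16. No peak touched any of the 9 Cyp3a, 8 Cyp2d, 5 Cyp2b or 4 Cyp2a genes, which include the main drug metabolising P450 genes of liver. Genes of their length classes give 3.21, 0.507, 1.59 and 0.455 genes hit in either series, so the short Cyp2d and Cyp2a genes would seldom be hit in any case. Cyp2c39, with 222.2 kb the longest member of all, had none.

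Ugt genes had peaks in series 2 and Sult genes in series 1. Of 22 Ugt genes, 0 were hit in series 1 and 3 in series 2, beside 23.7% and 28.5% of genes of their length classes (5.21 and 6.27 genes). Of 21 Sult genes, 3 were hit in series 1 and 0 in series 2, beside 19.6% and 21.9% (4.11 and 4.60 genes). The intervals of these shares overlap (0 to 15.4% and 2.91 to 34.9% for Ugt, 3.05 to 36.3% and 0 to 16.1% for Sult), and the difference between the libraries was not tested. Ugt2a1 and Ugt2a2, glucuronosyltransferases known from olfactory epithelium, overlap on chromosome 5 and shared 1 series 2 peak of 217 bp with a score of 15. Ugt8a, the ceramide galactosyltransferase of myelin, had 1 series 2 peak of 219 bp with a score of 21 over 0.298% of its 73.4 kb. None of the 9 Ugt1a genes was hit, although Ugt1a10 spans 164.6 kb and Ugt1a9 149.2 kb. They share their 3′ part and form 1 locus, so they are not independent, although each is counted here, and they supply 5.15 of the 8.61 genes that length classes give for Ugt in either series and 5.15 of the 31.3 for the liver-type clusters. The 7 Ugt2b and 2 Ugt3a genes had no peak. Among the sulfotransferases, Sult2a3 had 1 series 1 peak of 900 bp (score 15) and Sult2a8 1 of 272 bp (score 14), both hydroxysteroid sulfotransferases of the cluster on chromosome 7. Sult6b1, on chromosome 17 from 78884885 to 78906992, had 1 series 1 peak of 348 bp with a score of 23.

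Of the 20 members outside these groups, 3 had a peak, beside 22.8% (4.55 genes) from their length classes: Ugt8a, Sult6b1 and Cyp2f2. Cyp2f2, a P450 known from club cells of the airway, lies on chromosome 7 from 27119955 to 27133660 and had the highest covered share of all members, 6.89% in series 1, from 1 peak of 945 bp with a score of 19, and 0 in series 2. Just past its 3′ end both libraries had a peak outside any annotated gene, 635 bp away in series 2 (score 16) and 1153 bp away in series 1 (score 31). With spans extended by 2 kb Cyp2f2 therefore joined Cyp51 as hit in both. The longest members of this group without a peak were Sult4a1 (29.7 kb), Sult1c1 (29.0 kb) and Cyp4x1 (27.8 kb), and Cyp1a1, Cyp1a2 and Cyp2e1 had none, named after their values were seen.

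**Figure D3:**
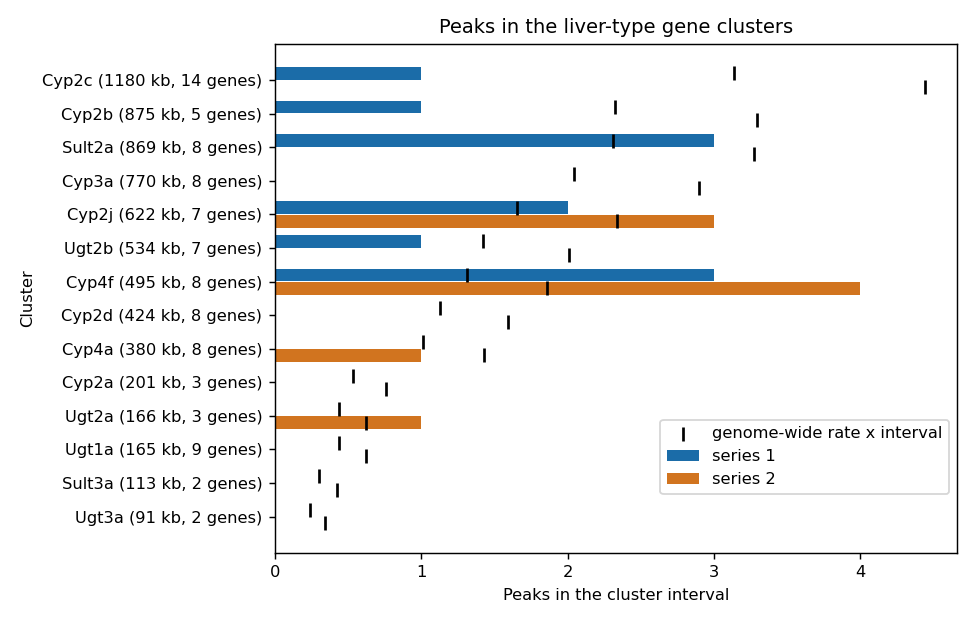
Number of peaks (x axis) in each of 14 liver-type cluster intervals, from the first to the last member, in series 1 and series 2; ticks mark the number that the rate of peaks along all chromosomes would place in the interval. Only the Cyp2j and Cyp4f intervals hold peaks of both libraries, and the Cyp3a interval of 769.8 kb holds none.

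The clusters were also taken as intervals, so that space between genes counts. The 14 intervals span 6.89 Mb and hold 92 members of their own subfamilies. The Ugt2a and Ugt2b intervals overlap, and a further Cyp2a gene lies within the Cyp2b interval. They contained 11 peaks of series 1, or 1.60 per Mb, and 9 of series 2, or 1.31 per Mb. Along all chromosomes the rates were 2.66 and 3.76 per Mb, and within merged coding gene spans 4.99 and 6.20 per Mb. The largest interval, Cyp2c, with 14 genes over 1180.3 kb on chromosome 19, held 1 peak of series 1 and 0 of series 2, and Cyp2b held 1 and 0 over 875.0 kb. Sult2a, of nearly the same length at 869.1 kb, held 3 of series 1, or 3.45 per Mb, and 0 of series 2. The Cyp3a, Cyp2d, Cyp2a, Ugt1a, Sult3a and Ugt3a intervals, 6 of the 14, held none. In series 1, 8 of the 11 interval peaks lay on members and 3 outside any gene. In series 2, 4 of the 9 lay on members, 1 on the zinc finger gene Zfp871, 1 on the pseudogene Cyp2j7 and 3 outside any gene. Zfp871 was the 1 of 11 other coding genes inside the intervals with a peak.

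**Figure D4:**
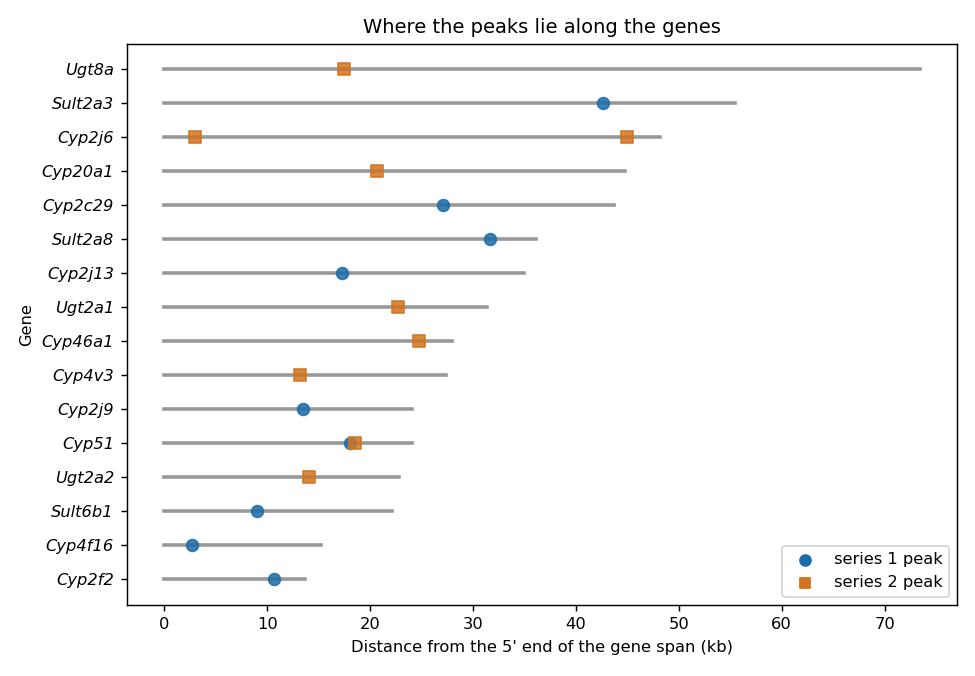
Position of each peak centre as the distance in kb from the 5′ end of the gene (x axis) on the 16 hit members whose strand is listed; grey lines are the gene spans, circles series 1 peaks and squares series 2 peaks. Cyp51 is the gene where the symbols of both libraries coincide.

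Peaks on the members were wide in series 1 and narrow in series 2, and in both lists their widths departed from those of all coding genes. The 11 series 1 peaks were 272 to 1090 bp wide, with a median of 900 bp, against 523 bp for all series 1 peaks in coding genes, and their median score was 17, against 21. In series 2 the 11 peaks were 217 to 231 bp wide, the narrow form that prevails in that list and near its minimum width of 216 bp. Their median score was 16, the same as for coding genes. The series 2 contrast of broadly used and liver-type members thus rests on peaks of this form. Of series 2 peaks in coding genes 27.3% were wider than 300 bp, and of those on members 0 were. Along the gene, 17 peaks on members with a listed strand had their centres at 6.11 to 93.4% of the span, with medians of 62.0% in series 1 and 60.3% in series 2. Over all genes with a listed strand the medians were 60.9% and 58.9%.

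**Figure D5:**
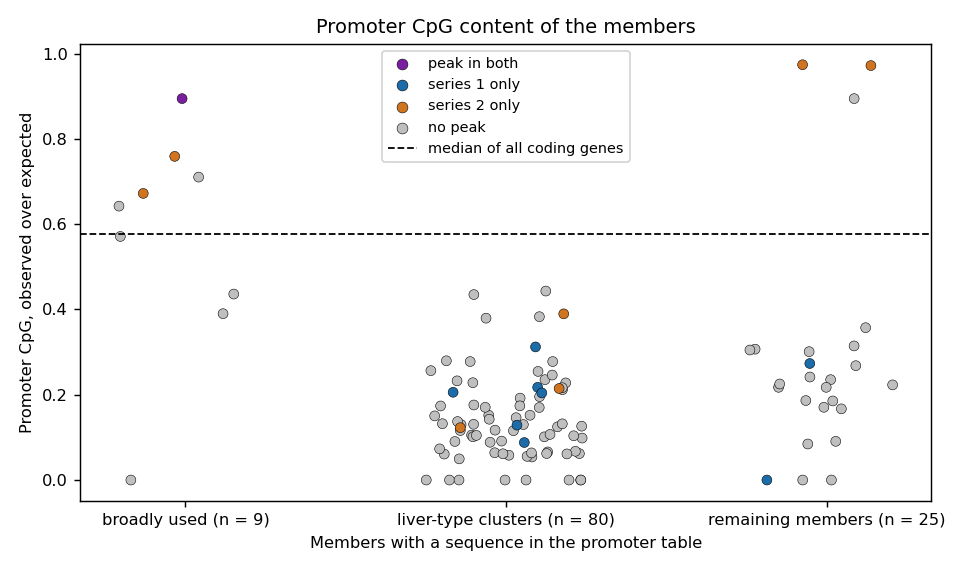
Observed over expected CpG of the promoter window (y axis) for 114 members, by group, with horizontal scatter for legibility; colour gives the library with a peak, and the dashed line is the median of all coding genes, 0.577. All 80 liver-type promoters lie below the line. Of the 8 promoters above it, 5 belong to genes with a peak in either series, where 40.3% of all coding genes above the line have one.

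Promoter CpG was not used to choose the members. In all, 8 of 114 members had a ratio above the median of all coding genes: Cyp51, Cyp20a1, Cyp4v3, Cyp46a1 and Ugt8a, which had a peak, and Cyp2r1, Cyp1b1 and Cyp26a1, which had none. Of these 8, 1 was hit in series 1 and 5 in series 2. Of the 106 members at or below the median, 8 (7.55%) were hit in series 1 and 3 (2.83%) in series 2. Over all coding genes the shares were 24.95% and 28.7% above the median and 7.59% and 10.4% at or below it. The low-CpG genes behind these shares are shorter than the members, with a median span of 10.3 kb against 23.6 kb for the 106 members, so the shares are not matched on length. None of 80 liver-type promoters was above the median, their highest ratio being 0.443, and their median count was 2 CpG, against 13 for all coding genes and 17 for the 9 broadly used members matched. With classes of both length and promoter CpG, the background for the 114 members fell from 18.2% to 10.9% in series 1, where 7.89% were observed, and from 20.8% to 13.8% in series 2, where 7.02% were observed. For both series it fell from 8.30% to 4.36%, against 0.877% observed. Promoter CpG thus moves with the low count of hits; its part in that count was not tested.

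Motifs were searched on both strands. TATAAA, the letters of the TATA box, was found in 32 of 80 liver-type windows and 0 of 9 broadly used ones. Of 17492 windows of all coding genes 13.3% held it. It was counted anywhere in the window, so a match need not be a TATA box. Median GC was 44.8% in liver-type windows, 63.0% in broadly used ones and 56.3% in all. TATAAA holds only A and T, so its counts are not separate from this composition. GGGCGG, the GC box, was in 11.2% of liver-type and 5 of 9 broadly used windows, against 46.3% of all. CCAAT was in 38.8% and 4 of 9, against 39.2% of all. TCACNCCAC, 1 form of the core of the sterol regulatory element, was in 1.17% of all windows and in 5 of 114 members (4.39%). It was in 4 of 80 liver-type and 0 of 9 broadly used windows. These letters are not in the Cyp51 window. Other forms of the element were not searched, so their absence from that window is not shown. GGGCGG holds a CpG by its own letters, so it is not separate from the CpG counts.

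The genes around the P450 enzymes were read from lists that do not contain the members. Of 28 genes of cholesterol synthesis and its control, 4 were hit in series 1 and 6 in series 2, beside the 4.46 and 5.03 that their length classes give. Dhcr7, the last reductase of the pathway, and Mbtps1, a protease that activates the sterol-sensing factor SREBP, were hit in both. Their means were 1.79% ± 0.406 and 0.697% ± 0.264 of the span (SD, n = 2), with the same limit of scale as for Cyp51. These 2 genes stand beside 1.81 that the length classes give for both series. Of 16 P450 partners and P450 genes with other symbols, 2 were hit in each series, beside 2.72 and 3.19 from their length classes. Cyb5b, the cytochrome b5 of the outer mitochondrial membrane, was the 1 hit in both, beside 1.29 from the length classes. Its peaks lay over 2.54% and 3.01% of its span. Por, the P450 reductase, had none, named after its values were seen.

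Regulators and other conjugation genes were not hit more often than genes of their length. Of 18 xenobiotic sensors and liver regulators, 3 and 4 were hit, beside 3.82 and 4.57 from their length classes. Arnt, the dimer partner of the aryl hydrocarbon receptor, was the 1 hit in both (2.43% and 0.526% of the span), beside 2.02. Of 44 other conjugation and cofactor genes, 5 and 3 were hit, beside 5.50 and 6.37. Gclc, the catalytic subunit for glutathione synthesis, was the 1 hit in both, beside 2.18 from the length classes. It had 2 peaks over 4.50% of its span in series 1 and 1 over 3.78% in series 2. Named after their values were seen, Ugdh, which makes the glucuronic acid donor of the Ugt enzymes, had 1 peak in series 1, and Papss2, which makes the sulfate donor of the Sult enzymes, had 1 in series 2. As a check of the cell type, 4 of 10 medullary epithelial markers had a peak in each series, beside 1.75 and 2.09 from their length classes. Krt5, Lamb3 and Itga6 were hit in both. The 5 without a peak in either series, named after their values were seen, were Epcam, Krt14, Krt8, Foxn1 and Cd40. Of 6 thymocyte markers 0 were hit, where length classes give only 1.00 and 1.17. Of 8 hepatocyte markers 2 were hit in series 1 and 1 in series 2, beside 1.48 and 1.81. In either series 5 medullary markers were hit, beside 2.96, and 3 hepatocyte markers, beside 2.52. The check therefore does not clearly separate these cell types. Peak lists hold no read counts, so the depth is unknown, and absence of a peak says only that none was called there.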

How the data were processed

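Peak lists of 2 ChIP libraries were analysed. Per the submitters' processing notes, Bowtie2, SAMtools and MACS2 were used on build mm10; no version or setting is named there. The names of the peaks in the files pair the ChIP of series 1 with both of its inputs and that of series 2 with its single input. For each broad peak the authors deposited a position, a name and a score, a whole number of unstated meaning. Peaks were called in each series on its own, so scores and widths are not on 1 scale across the lists. Input reads were not used here.

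Gene spans of 21887 protein-coding genes and promoters came from RefSeq on GRCm38.p6, which has the coordinates of mm10. A gene was hit when at least 1 bp of its span lay under a peak. Overlapping genes share peaks. Length classes are 10 equal parts of all coding genes; a weighted background is the mean share of the members' classes. Clusters are runs of 2 or more members of a subfamily with gaps of at most 500 kb. CpG observed over expected is the CpG count times the window length over the product of C and G counts.

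The members, the gene lists and the contrast were chosen with earlier results of these data known. No test was run, since 2 libraries without counts allow none here; exact binomial intervals (95%) cover counting error only. Named genes are all members with a peak, the broadly used list, up to 3 longest members without a peak per role group, and members of the other lists hit in both series; others are named as chosen after their values were seen. Of 45 conjugation genes written down, 44 were matched. Values of some single genes of the other lists are not reported here. Alternatives were thresholds on score, width and overlap, extended spans, isolated genes and single libraries. Python 3.11.15, numpy 2.4.6, pandas 2.3.3, scipy 1.17.1 and matplotlib 3.10.9 were used, and the overlap code was tested on simulated data.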

Additional observations from a re-analysis of the deposited data

How the results depend on the processing

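Of 56 alternative counts, 21 stayed within 1.5 times the count reported and 35 did not. Counting only peaks that scored 20 or more, members hit in both series fell from 1 to 0, in either series from 20 to 8, in series 1 from 10 to 3 and in series 2 from 11 to 5; the broadly used members hit in either series numbered 2 and the liver-type members 2, against 4 and 11. The counts fell for all genes too: with that score 16.6% of coding genes were hit in either series, against 5.63% of members. In series 1, series 2 and both, 10.9%, 9.01% and 3.30% of coding genes were hit, against 2.11%, 3.52% and 0% of members. With a score of at least 50 the counts were 0 in both series, 1 in either, 0 in series 1, 1 in series 2 (Cyp51), 1 broadly used and 0 liver-type. With peaks wider than 300 bp they were 0 in both, 9 in either, 0 in series 2, 1 broadly used and 6 liver-type, and with at least 1% of the span under peaks they were the same numbers, 0, 9, 0, 1 and 6. Of all coding genes 2.16% were hit in either series at a score of at least 50, 17.7% by wider peaks and 13.9% at 1% of the span, against 0.704%, 6.34% and 6.34% of members. In the same order, 0.0868%, 3.38% and 2.28% of all coding genes were hit in both series. In series 2 alone the shares of all coding genes were 0.763%, 6.89% and 7.10%. At a score of at least 50, 1.48% of them were hit in series 1. Spans extended by 2 kb gave 2 members in both series, Cyp51 and Cyp2f2, or 1.41% against 8.81% of all genes. In either series they gave 14.8% of members against 29.2% of all genes. Among the 103 members without a coding gene within 5 kb, 0 were hit in both, 11 in either and 4 in series 2. They included 1 broadly used of 5 and 7 liver-type of 80. Cyp51 is not among the 103. The share of all coding genes under this filter is not given, so these counts stand without a background. The cause of these shifts was not tested, beyond the fewer genes or peaks that each setting keeps.

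Taking 1 library at a time gave 10 to 11 members in place of 1 in both, and 10 to 11 in place of 20 in either. With 1 library both counts are by definition that library's own count. These shifts were thus fixed in advance, though they are among the 35. The broadly used members ranged from 1 (series 1 alone) to 4 (series 2 alone), and the liver-type members from 4 (series 2 alone) to 7 (series 1 alone), so the contrast between them rests on series 2. Counting members that share a peak once, chosen after seeing the data, gave 19 in either series. No paired analysis was possible because the input libraries have no peak list of their own and no result comes from a test. Depth is unknown, so it cannot be said which genes without a peak were out of reach.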
